A study of Mus musculus with 18 samples.

Results

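Primary mammary tumours of mice labelled Wnt1_iR2 were compared with primary mammary tumours labelled Wnt1_iFGFR2, here called iR2 and iFGFR2, across every gene that the array names. Each group held 4 arrays, and the comparison used 8 of the 18 arrays in the series. The members were chosen by the label of the tumour channel alone. The other 10 arrays, 6 from tumours labelled Wnt1 and 4 from tumours labelled Wnt1_iFGFR1 (iFGFR1), entered the fit to estimate the spread. All 4 groups carry Wnt1 in their label, and every sample title also carries FVB, a mouse strain, and MMTV, the name of a viral promoter used to drive transgenes in the mammary epithelium. No label gives a drug, a dose, a time or an age. The labels do not spell out iR2 or say how it relates to iFGFR2. On each array the tumour RNA was labelled with Cy5 and total RNA of whole mouse, the common reference, with Cy3. The quantity throughout is therefore the log2 ratio of tumour over whole mouse, and a negative ratio marks a gene less abundant in the tumour than in the reference. Per gene 1 ratio was used, the mean of the features that carry its symbol, which gave 16887 genes.

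Wnt1 is a secreted ligand that stabilises beta-catenin, and mice with Wnt1 in the mammary epithelium develop tumours that hold both luminal and basal epithelial cells. The fibroblast growth factor (FGF) receptors are tyrosine kinases that signal through FRS adaptors, RAS and ERK, and their activity is commonly read from induced feedback inhibitors such as the Sprouty proteins and the DUSP phosphatases and from transcription factors of the ETV family. Fgfr1 and Fgfr2 differ in tissue distribution and in the ligands they bind, and both are expressed in the mammary gland.

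The arrays of the 2 groups differed as measurements before any gene was considered. Some 47 genes carry 10 or 11 features each, so their features give a spread within an array. The median standard deviation between such features was 0.104, 0.158, 0.086 and 0.092 on the 4 iR2 arrays. It was 0.507, 0.303, 0.343 and 0.387 on the 4 iFGFR2 arrays. The group means were 0.110 ± 0.033 and 0.385 ± 0.088 (SD, n = 4), and the groups did not overlap. A two-sided exact permutation test over arrays gave p = 0.0286, the smallest that 4 against 4 arrays allow. After Benjamini-Hochberg adjustment over 8 array measures it was 0.0457. The lower spread in iR2 was known beforehand and this measure was chosen after seeing the data, so the test only describes it. The planned measure, the median deviation between features of a gene, averaged 0.237 in iR2 and 0.328 in iFGFR2 (exact permutation p = 0.0286). Divided by the array's median absolute deviation, it differed by -0.0272 (exact permutation p = 0.2). Outside iR2, 1 array had as low a standard deviation between repeated features, the Wnt1 replicate 3 array at 0.115. The other 5 Wnt1 arrays lay between 0.241 and 0.372, and the iFGFR1 arrays between 0.272 and 0.459. The low end of the ratios also differed. The 1st percentile was -4.77 ± 0.15 in iR2 and -4.13 ± 0.16 in iFGFR2 (SD, n = 4, exact permutation p = 0.0286, adjusted 0.0457), while the 99th percentile was 2.08 ± 0.03 and 2.11 ± 0.26 (exact permutation p = 1, adjusted 1). The iR2 ratios thus reached further down and about as far up.

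**Figure D1:**
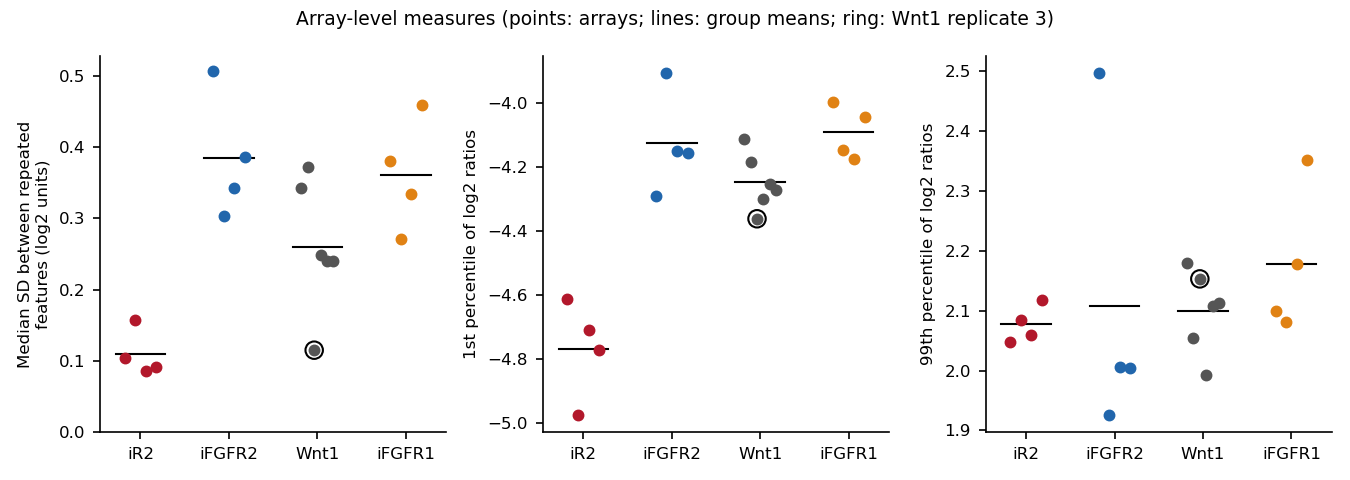
Array measures (points) for the 4 groups, with the group mean as a line and Wnt1 replicate 3 ringed: the median standard deviation between repeated features, and the 1st and 99th percentiles of all log2 ratios. The iR2 arrays and Wnt1 replicate 3 lie under 0.2 in the first panel, and all 4 iR2 arrays lie below all 4 iFGFR2 arrays in the second.

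The iR2 arrays also resembled each other more. Across genes, which are not independent replicates, pairs of iR2 arrays correlated between 0.933 and 0.962, pairs of iFGFR2 arrays between 0.720 and 0.876, and pairs across the 2 groups between 0.760 and 0.883. The median standard deviation of a gene was 0.174 among the iR2 arrays and 0.389 among the iFGFR2 arrays, and it was smaller in iR2 for 85.3% of genes. The numbers in the sample titles of iR2 lay within a span of 5, and all were above those of iFGFR2. No label states a batch or says that these arrays come from separate animals, so p-values measure only how far these samples lie apart, and that distance may be technical. Since 4 of the 5 arrays with low spread between features are the iR2 arrays, the group and whatever sets that spread cannot be told apart beyond what the single Wnt1 array allows.

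None of the genes named in the labels was called between iR2 and iFGFR2. Fgfr1 had log2 ratios of 0.55, 0.64, 0.56 and 0.48 in iR2 and 0.06, 0.65, 0.20 and -0.09 in iFGFR2. The difference was 0.35 ± 0.20 (SE; limma, adjusted p = 0.434), and the groups overlapped. In iFGFR1 tumours the same gene ranged from 1.32 to 2.15, above every array of iR2 and iFGFR2. Fgfr2 had ratios of 0.14, -0.67, -0.25 and -0.05 in iR2 and -0.81, 0.40, -0.72 and -0.55 in iFGFR2. Its difference was 0.21 ± 0.27 (SE; limma, adjusted p = 0.772), and neither group exceeded the Wnt1 tumours, at -0.29 to 0.51. Fgfr1, Fgfr2 and Wnt1 were each read by 1 feature whose position in the transcript the files do not give, so a transgene lacking that stretch would go unread. The ligand gene Wnt1 was at 1.51 ± 0.38 and 1.54 ± 0.67 (SD, n = 4). Fkbp1a, which encodes the immunophilin FKBP12 and is named in no label, was at -0.20 ± 0.27 and -0.43 ± 0.20 (SD, n = 4), also not called.

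No gene of the FGF pathway passed the test. Of 15 measured receptors, co-receptors, adaptors and ligands, 0 were called at limma's adjusted p of 0.05. At an unadjusted limma p under 0.05, 5 of the 15 were lower in iR2 (9.64% of all genes) and 0 higher (5.76%). The co-receptor Klotho (Kl) had ratios of -2.72, -3.55, -2.67 and -2.80 in iR2 and -1.996, -0.03, -1.57 and -1.56 in iFGFR2. All 4 iR2 arrays lay below all 4 iFGFR2 arrays, with a difference of -1.65 ± 0.49 (SE; limma, adjusted p = 0.0933). Fgf3, a ligand gene known as an insertion site of the mouse mammary tumour virus, stood at -0.06, 0.26, -0.21 and -0.01 in iR2. In iFGFR2 it stood at 2.93, 1.03, 0.46 and 0.96, so the groups did not overlap, and the difference was -1.35 ± 0.42 (SE; limma, adjusted p = 0.117). The receptor gene Fgfr4 differed by -0.70 (limma, adjusted p = 0.062) and the ligand gene Fgf8 by -0.94 (limma, adjusted p = 0.0602).

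Of 22 feedback and ERK target genes, 0 were called. At an unadjusted limma p under 0.05, 1 was higher in iR2 (5.76% of all genes) and 2 were lower (9.64%). The feedback inhibitor Spry1 was at 0.61, 0.32, 1.09 and 0.19 in iR2 and at -0.67, -0.14, -0.07 and -0.17 in iFGFR2, without overlap (difference 0.81 ± 0.26, SE; limma, adjusted p = 0.131). Its relative Spry2 differed the other way, by -0.64 (limma, adjusted p = 0.118). The phosphatase gene Dusp6 differed by -0.15, and the ETV genes Etv4 and Etv5 by -0.39 and -0.17. The median difference over the 22 genes was -0.09 on the deposited scale and 0.13 with each array scaled to 1 median absolute deviation, so its sign depended on the scaling.

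Across all 16887 genes, 227 were called at limma's Benjamini-Hochberg adjusted p of 0.05 (1.34% of those tested). Of these, 46 were higher in iR2 (0.272%) and 181 lower (1.07%). At an unadjusted p of 0.05, 972 genes were higher (5.76%) and 1628 lower (9.64%). All 4 iR2 arrays lay above all 4 iFGFR2 arrays for 734 genes (4.35%) and below them for 1466 (8.68%). The median difference over all genes was -0.03, and single genes ran from -2.63 to 2.11. Of the 47 genes with 10 or 11 features, 0 were called, and 12 had an unadjusted limma p under 0.05, 5 higher and 7 lower. The count over all genes rested on single arrays: it was 19 without iR2 replicate 2, 78, 102 and 115 without iR2 replicates 4, 1 and 3, and 135 without iFGFR2 replicate 3. The 19 genes left without iR2 replicate 2 (3 higher, 16 lower) were also the ones that stayed called whichever single array of the 18 was left out, so every other call described here was lost without that array. Quantile normalization, which gives every array the same distribution, left 10 genes higher and 9 lower, all 19 of them among the 227. Scaling to 1 median absolute deviation gave 373 higher and 1215 lower.

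The lower calls were concentrated among genes scarce in the tumours: 154 of the 181 had a mean ratio under -1 over the 18 arrays. Among 448 genes with a mean ratio under -3, 65 were called lower (14.5%) and 0 higher, with a median difference of -0.60. Of the 547 genes between -3 and -2, 52 were called lower and 1 higher. Of the 14605 genes at or above -1, 27 were called lower and 43 higher, with a median difference of -0.00. Genes at ratios far below 0 are those that the whole-mouse reference holds and the tumours scarcely do, and it is there that the iR2 arrays reached further down. Not every scarce gene list fell. The skeletal muscle, adipocyte, and fibroblast and matrix lists had median levels over the 18 arrays of -3.89, -3.09 and -2.49. Their median differences were 0.10, -0.06 and 0.13. For the mast cell list and the erythrocyte and platelet list the levels were -2.42 and -2.53, and the differences -0.51 and -0.67.

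**Figure D2:**
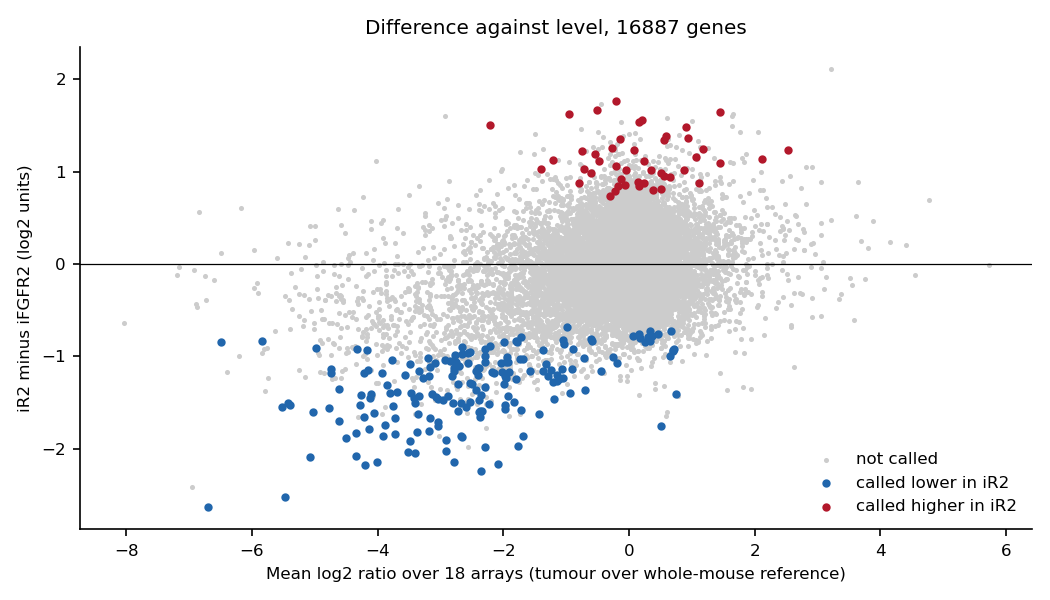
Difference between iR2 and iFGFR2 (log2 units, vertical axis) against the mean log2 ratio over the 18 arrays (horizontal axis) for 16887 genes, with the 46 genes called higher and the 181 called lower marked. The lower calls sit mostly to the left, at ratios under -1, and the higher calls mostly between -1 and 2.

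The 46 genes higher in iR2 included enzymes, membrane proteins and ribosomal genes, and 43 of them had a mean ratio of at least -1. Atp6v1a, which encodes the catalytic subunit of the vacuolar proton pump, had ratios of 1.43, 0.74, 1.15 and 1.10 in iR2. In iFGFR2 it had -1.03, 0.14, -0.28 and -0.63. All 4 iR2 arrays were higher, and the rise was 1.56 ± 0.23 (SE; limma, adjusted p = 0.0031), 2.94-fold if the logarithm is to base 2. The Wnt1 tumours lay between -0.28 and 0.19 and the iFGFR1 tumours between 0.07 and 0.53, between the means of the compared groups.

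Esyt3, an extended synaptotagmin that tethers membranes of the endoplasmic reticulum to the plasma membrane, stood at 1.84, 1.75, 1.63 and 2.01 in iR2 and at 0.42, 0.70, 0.73 and 0.41 in iFGFR2. It rose by 1.24 ± 0.20 (SE; limma, adjusted p = 0.00699). The small heat shock protein gene Hspb1 stood at 1.03, -0.34, -0.26 and -0.33 in iR2 and at -1.79, -1.71, -1.36 and -1.52 in iFGFR2. Its rise was 1.62 ± 0.28 (SE; limma, adjusted p = 0.00852), and iR2 replicate 1 stood apart above the other 3 arrays. Atp6v1a, Esyt3 and Hspb1 were the 3 higher genes that kept their call without any 1 array (highest limma adjusted p 0.0198, 0.0351 and 0.03), and all 3 stayed called after quantile normalization. The call of Hspb1 thus held without iR2 replicate 1.

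**Figure D3:**
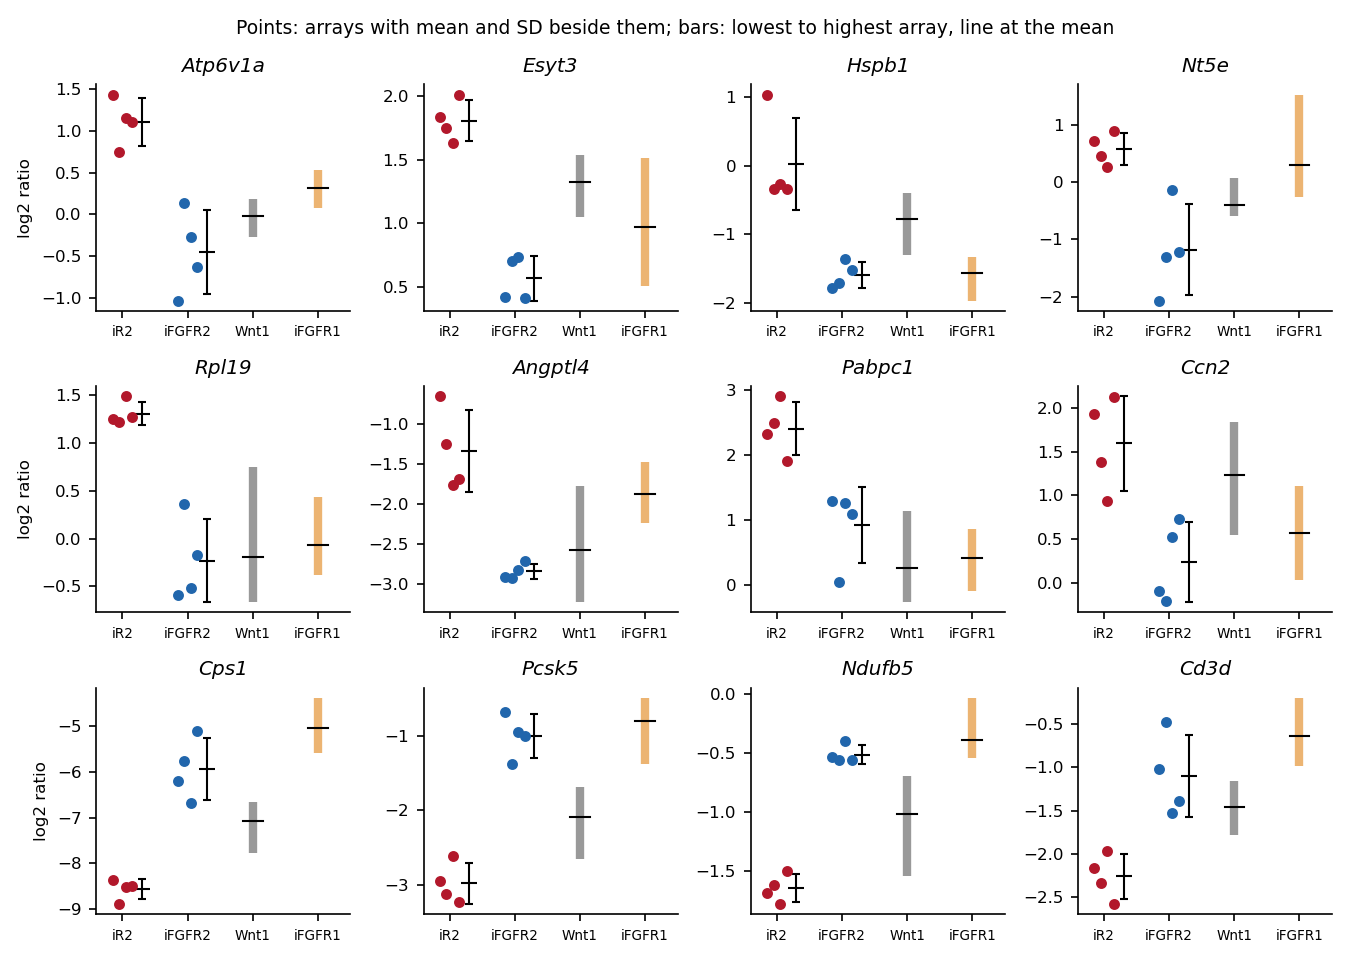
Log2 ratios of 12 genes: points show the 4 iR2 and 4 iFGFR2 arrays with the mean and standard deviation beside them, and bars run from the lowest to the highest of the 6 Wnt1 and 4 iFGFR1 arrays with a line at the mean. The top 8 genes are higher in iR2 and the last 4 lower, and in all 12 no iR2 array overlaps an iFGFR2 array.

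Nt5e, the ecto-5'-nucleotidase CD73 that makes adenosine outside the cell, was at 0.72, 0.46, 0.27 and 0.90 in iR2 and at -2.07, -1.30, -0.13 and -1.21 in iFGFR2. It had the largest rise among called genes with a gene name, 1.76 ± 0.36 (SE; limma, adjusted p = 0.0195). The metalloreductase gene Steap4 rose by 1.66 and Angptl4, an inhibitor of lipoprotein lipase, by 1.505. Angptl4 was at -0.65, -1.25, -1.76 and -1.68 in iR2 and within -2.92 to -2.72 in iFGFR2. Chp1, a calcium-binding partner of sodium-proton exchangers, rose by 1.35, the lipoxygenase gene Alox15 by 1.34, the nuclear matrix protein gene Matr3 by 1.26 and the prostaglandin E2 receptor gene Ptger4 by 1.24. Speer4f1, of a multigene family whose near-identical members a probe may not separate, rose by 1.65. Each rise is measured against iFGFR2. The Wnt1 means of Alox15, Ptger4 and Speer4f1 were 0.97, 0.39 and 2.18. They lay nearer to the iR2 means (0.80, 0.57 and 2.41) than to the iFGFR2 means (-0.54, -0.67 and 0.76). In iFGFR1 the means of these genes were 0.77, -0.15 and 0.10. The Wnt1 means of Nt5e, Steap4, Angptl4, Chp1 and Matr3 were -0.41, -0.48, -2.57, -0.61 and -1.09, nearer to the iFGFR2 means. Of the 15 largest rises, 14 did not overlap between the groups (4.35% of all genes), which picking the largest called differences favours. Chp1 did overlap, with an iR2 array at 0.25 and an iFGFR2 array at 0.27.

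Genes of the cytosolic ribosome were higher in iR2 as a group. Of 80 ribosomal protein genes listed, 65 were measured, and 7 were called higher (background 0.272%) and 0 lower. All 4 iR2 arrays lay above all 4 iFGFR2 arrays for 29 of the 65 (background 4.35%) and below them for 0 (background 8.68%). The median difference was 0.49, against -0.03 over all genes, and 58 of the 65 differences were positive. The median stayed positive under median centring (0.46), quantile normalization (0.56) and scaling to 1 median absolute deviation (0.66). The mean ratio of the 65 genes was 0.83, 0.86, 1.02 and 0.71 on the iR2 arrays and 0.31, 0.43, 0.36 and 0.30 on the iFGFR2 arrays. On the Wnt1 arrays it was between 0.14 and 0.32 except on Wnt1 replicate 3, the array with low spread between features, where it was 0.59. With the 5 low-spread arrays as a block, a fit that rests on that 1 Wnt1 array and on its tissue content, the median difference was 0.12.

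Rpl19, a protein of the large ribosomal subunit, had ratios of 1.25, 1.22, 1.49 and 1.27 in iR2 and -0.59, 0.36, -0.52 and -0.17 in iFGFR2. Its rise was 1.54 ± 0.27 (SE; limma, adjusted p = 0.00995), and Wnt1 replicate 3, at 0.75, was the highest of the Wnt1 arrays. Rpsa, of the small subunit, was at 1.70, 1.40, 1.93 and 1.49 against -0.10, 0.91, 0.06 and 0.09. It rose by 1.39 ± 0.31 (SE; limma, adjusted p = 0.027). The other called genes were Rpl23a (1.11), Rps24 (0.98), Rps12 (0.95), Rps23 (0.81) and Rps28 (0.80), where each value is the log2 difference. Rpl19 and Rpsa, like most ribosomal protein genes, have processed pseudogenes, and hybridization of such copies was not told apart. The lowest differences in the group were -0.43 for Rps19 and -0.24 for Rpl30, neither called.

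**Figure D4:**
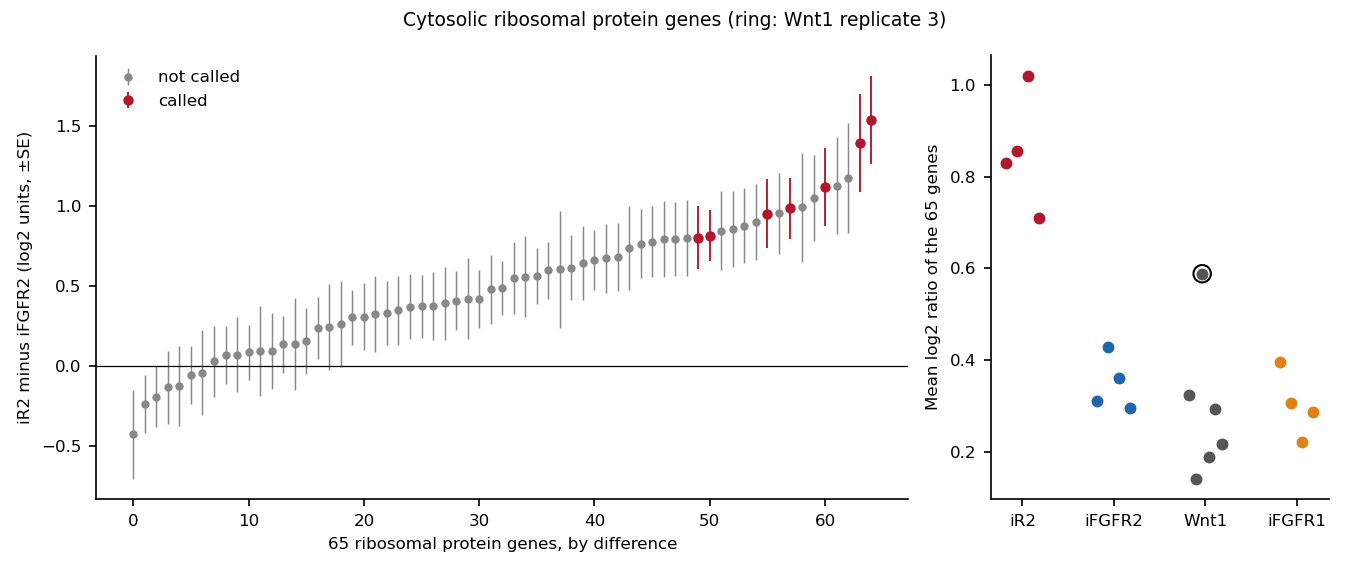
Left, the iR2 minus iFGFR2 difference with its standard error for 65 cytosolic ribosomal protein genes in order of size, with the 7 called genes in colour. Right, the mean log2 ratio of the 65 genes on each array, where the iR2 arrays lie between 0.71 and 1.02, above all others, and the ringed Wnt1 replicate 3 is the next highest at 0.59.

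The start regions of the called ribosomal genes are shown because such genes commonly begin their transcripts with a pyrimidine tract, through which their translation is controlled. Sequences are RefSeq's on GRCm38.p6, from 50 bases before to 30 bases after the most upstream start listed for each gene, in the direction of transcription, and capitals mark runs of at least 8 bases of only C or T. The coordinates are chr11:98026660-98026739 (plus strand) for Rpl19, chr14:24490628-24490707 (plus) for Rps24, chr13:90923072-90923151 (plus) for Rps23, chr9:120127716-120127795 (plus) for Rpsa, chr10:23787180-23787259 (minus) for Rps12 and chr17:33824533-33824612 (minus) for Rps28.
Rpl19: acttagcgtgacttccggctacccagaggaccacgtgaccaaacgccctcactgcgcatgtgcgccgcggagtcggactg
Rps24: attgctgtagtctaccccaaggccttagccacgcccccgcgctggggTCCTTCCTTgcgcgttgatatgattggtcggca
Rps23: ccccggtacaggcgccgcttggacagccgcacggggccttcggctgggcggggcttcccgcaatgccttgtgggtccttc
Rpsa: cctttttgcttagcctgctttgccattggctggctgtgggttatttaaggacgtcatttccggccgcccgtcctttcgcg
Rps12: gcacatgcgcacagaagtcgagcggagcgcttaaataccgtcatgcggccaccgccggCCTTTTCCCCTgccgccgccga
Rps28: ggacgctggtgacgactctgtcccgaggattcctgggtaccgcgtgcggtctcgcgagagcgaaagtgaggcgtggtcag

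Within 50 bases of the start, read in the direction of transcription, 41 of the 53 measured ribosomal protein genes with a listed start held such a run (77.4%), against 35.7% of 27025 genes in the table and 33.7% of the array's genes. Of the 6 called genes with a listed start, 3 held one, and 38 of the 47 that were not called (80.9%). The run was thus no more common among the called genes than in the rest of the ribosomal list. The letters TTCCG, searched on both strands in the same window, were in 31 of the 53 (58.5%), in 22.3% of the array's genes and in 16.2% of all listed starts.

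Other parts of the translation apparatus held few calls. Of 44 translation factors, 1 was called higher (background 0.272%), Pabpc1, the cytoplasmic poly(A)-binding protein. Its ratios were 2.32, 2.49, 2.90 and 1.91 in iR2 and 1.29, 0.05, 1.25 and 1.08 in iFGFR2, a rise of 1.49 ± 0.31 (SE; limma, adjusted p = 0.0223), with no overlap. The median difference of the 44 genes was 0.07. Among 73 mitochondrial ribosomal proteins limma called 0, and the median was -0.14. At an unadjusted limma p of 0.05, 2 were higher (background 5.76%) and 8 lower (background 9.64%). Among 19 aminoacyl-tRNA synthetases 0 were called and 0 had an unadjusted p under 0.05, and the median was 0.12.

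Of 72 nuclear and mitochondrial genes of oxidative phosphorylation, 3 were called lower (background 1.07%) and 0 higher. Ndufb5, a subunit of complex I, was at -1.68, -1.62, -1.77 and -1.49 in iR2 and at -0.53, -0.56, -0.40 and -0.56 in iFGFR2. The groups were far apart, and the difference was -1.13 ± 0.20 (SE; limma, adjusted p = 0.00979). The ATP synthase subunit genes Atp5k and Atp5o fell by 1.14 and 0.86 on the log2 scale. The median over the 72 genes was -0.14, and all 4 iR2 arrays were below all 4 iFGFR2 arrays for 8 genes, near the background of 8.68%. At an unadjusted limma p of 0.05, 14 of the 72 were lower (background 9.64%) and 0 higher (background 5.76%).

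The heat shock, immediate early and clock gene lists had positive medians but few calls. Among 28 genes of ATF4 and the unfolded protein response and 18 NRF2 targets 0 were called, with medians of -0.15 and -0.006. Of 12 heat shock genes 11 had positive differences with a median of 0.44, and Hspb1 was the 1 called (background 0.272% higher). The inducible chaperone gene Hspa1a differed by 1.38 (limma, adjusted p = 0.362), and the constitutive chaperone gene Hspa8 by 0.50 (limma, adjusted p = 0.292). The mean ratio of the 12 genes was 0.87 on iR2 replicate 1 and -0.04, -0.02 and 0.02 on the other iR2 arrays, against -0.77, -0.09, -0.25 and -0.05 in iFGFR2. Both groups thus held 1 array apart from the rest.

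Of 21 immediate early genes 1 was called, higher in iR2 (background 0.272%). Ccn2, a matricellular protein also known as connective tissue growth factor, was at 1.93, 1.38, 0.94 and 2.13 in iR2 and at -0.09, -0.21, 0.52 and 0.72 in iFGFR2. It rose by 1.36 ± 0.33 (SE; limma, adjusted p = 0.0418). Klf4 and Junb differed by 1.10 and 0.90, and Jun and Fosb by -0.31 and -0.23, none of them called. The median of the 21 genes was 0.37.

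Of 17 circadian clock genes 1 was called higher (background 0.272%). Without overlap, 5 lay above (background 4.35%) and 0 below (background 8.68%). Tef, a transcription factor driven by the clock, was at 0.42, 0.33, 0.14 and 0.54 in iR2 and at -0.47, -0.53, -0.56 and -0.70 in iFGFR2, a rise of 0.92 ± 0.23 (SE; limma, adjusted p = 0.0499). The period genes Per1 and Per2 differed by 0.85 and 1.03, and Nr1d2, a nuclear receptor that represses clock genes, by 1.10 (limma, adjusted p = 0.0604, 0.159 and 0.129). Dbp and Hlf, of the same transcription factor family as Tef, differed by -0.34 and -0.33. The hour at which tumours were collected is not given in the labels, and its part in these values was not tested.

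The largest falls included genes characteristic of organs other than the mammary gland. Of the 15 largest, 14 had an iR2 mean under -3. All 15 were separated without overlap (background 8.68%), which picking the largest called differences favours. Cps1, the urea cycle enzyme of liver and intestine, was at -8.37, -8.89, -8.52 and -8.50 in iR2 and at -6.21, -5.75, -6.69 and -5.10 in iFGFR2. Its difference of -2.63 ± 0.31 (SE; limma, adjusted p = 7.41e-04) was the lowest of all 16887 genes. The synaptic vesicle gene Snap91 fell by 2.53 and the neural transcription factor gene Zic1 by 2.09 on the log2 scale. Pln, the calcium pump regulator of heart muscle, fell by 2.24, the corneal proteoglycan gene Kera by 2.18, the gut gene Spink4 by 2.17 and the intestinal lectin gene Reg3b by 1.91. The host transcript of the brain microRNA miR-124, Mir124-2hg, fell by 1.98.

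Other genes among the 15 largest falls were Grik1 (a kainate receptor, -2.14), Arpp21 (a neuronal phosphoprotein, -2.04), Mlc1 (an astrocyte membrane protein, -2.03), Nxph1 (a neurexin ligand, -2.03), App (the amyloid precursor, -2.08) and Mucl2 (a mucin-like protein, -2.15), each a log2 difference. App and Mucl2 were each read by 1 feature. App was at -5.59 to -6.00 in iR2 and at -4.30 to -3.29 in iFGFR2, low for a gene that most tissues express. Pcsk5, a proprotein convertase, was at a higher level than these, at -2.95, -3.12, -2.61 and -3.23 in iR2 and -0.68, -1.38, -0.95 and -1.002 in iFGFR2. The difference was -1.97 ± 0.25 (SE; limma, adjusted p = 9.10e-04). The Wnt1 tumours, at -2.65 to -1.68, lay between the means of the compared groups, but their lowest array was below the highest iR2 array. The iFGFR1 tumours, at -1.375 to -0.49, overlapped iFGFR2. The call of Pcsk5 held in every fit that left out 1 array and after quantile normalization. The same held for Cps1, Mucl2 and Mir124-2hg, while App and Pln held without any 1 array but not after quantile normalization.

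Organ gene lists were drawn up after these values were seen, so they describe the falls above and are no separate evidence of them. Median differences were -0.68 for 20 brain genes (4 called lower, against a background of 1.07%), -0.67 for 17 of intestine and stomach (6 called lower), -0.74 for 13 of kidney (3), -0.36 for 20 of liver (4), -0.50 for 15 of heart and smooth muscle (3) and -0.49 for 9 of pancreas (0 called, 6 lower at an unadjusted limma p of 0.05). In each list 0 were called higher, and 0 were higher at an unadjusted p of 0.05 (backgrounds 0.272% and 5.76%, and 9.64% for lower at the unadjusted p). After quantile normalization the medians were -0.26, -0.46, -0.53, 0.06, -0.09 and -0.38 in the same order, so the liver median changed sign. Of 7 measured genes of the Y chromosome 1 was called, lower in iR2 (background 1.07%). Eif2s3y lay between -6.14 and -5.35 in iR2 and between -4.57 and -2.997 in iFGFR2 (limma, adjusted p = 0.0195), while Sry, Zfy1 and Kdm5d differed by -0.24, -0.11 and 0.07. The median level over the 18 arrays was -4.33 for the liver genes and -3.19 for those of heart and smooth muscle. It was -1.27 for the kidney genes and -0.03 for the Y-linked genes. These are levels of whole lists and not of the members that fell. The called Y-linked gene, Eif2s3y, lay far below the median of its list.

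The Wnt1 array with low spread between features was set against the other Wnt1 arrays, which carry the same label. It also stood apart in tissue genes: its mean ratio was 2.82 for milk proteins (-0.36 to -0.06 on the other 5), 1.55 for luminal progenitor and alveolar genes (0.40 to 0.84), -1.12 for fibroblasts and matrix (-2.26 to -1.96) and -2.34 for adipocytes (-3.28 to -2.79). Every comparison through this array, the block fit included, carries that difference too. Over the 181 genes lower in iR2, the median ratio was -2.93 on Wnt1 replicate 3 and between -2.65 and -2.27 on the other 5 Wnt1 arrays. It was between -3.67 and -3.13 on the iR2 arrays and between -2.19 and -1.79 on the iFGFR2 arrays. For 87 of the 181 genes (48.1%) Wnt1 replicate 3 was the lowest of the 6 Wnt1 arrays, against 22.5% of all genes. Over the 46 genes higher in iR2 its median was 0.35, and the other 5 lay between -0.09 and 0.06. It was the highest Wnt1 array for 19 of the 46 (41.3%) and for 35 of the 65 ribosomal protein genes (53.8%), against 23.8% of all genes. These counts overlap: the 7 called ribosomal genes are in both, and Wnt1 replicate 3 was the highest Wnt1 array for each of the 7. By the medians over the 181 and over the 46 genes, this 1 array stood nearer to iR2 than the other Wnt1 arrays did. With the 5 low-spread arrays as a block, 141 genes were called higher and 188 lower, and 13 of these 329 were among the 227, Hspb1 and Pcsk5 included. With the spread between features as a linear covariate 1 gene was called, and with the title number 2.

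Few epithelial lineage genes were called. The tumours expressed the luminal markers: Krt18 was at 3.77 ± 0.22 in iR2 and 3.29 ± 0.34 in iFGFR2, Krt8 at 1.92 ± 0.10 and 1.61 ± 0.66, and Epcam at 2.69 ± 0.16 and 2.42 ± 0.57 (SD, n = 4). The basal keratin Krt14 was at 1.69 ± 0.68 and 0.88 ± 0.73, and the basal transcription factor Trp63 at 1.53 ± 0.32 and 2.22 ± 0.06 (SD, n = 4). The basal markers Krt5, at -0.05 ± 0.62 and -0.59 ± 0.55, and Acta2, at -1.48 ± 0.38 and -2.105 ± 0.53, had means below the reference (SD, n = 4). Of 41 defining markers of cell types limma called 0 (lowest adjusted p 0.152), with 3 higher and 6 lower at an unadjusted p of 0.05. The backgrounds over all genes at that unadjusted p were 5.76% higher and 9.64% lower. Of 23 luminal genes 0 were called (2 higher and 0 lower unadjusted), with a median of 0.23. Of 24 basal genes 0 were called (4 higher and 2 lower unadjusted), with a median of 0.26. The stem cell receptor gene Lgr5 was at 1.16, 0.35, 1.30 and 1.44 in iR2 and at -2.35, 0.14, 0.59 and 0.47 in iFGFR2, where the first array stood apart.

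Single genes of the epithelium were called. Cldn8, a claudin of tight junctions, was at 1.92, 1.78, 1.91 and 1.75 in iR2 and at 1.02, 1.02, 0.98 and 0.83 in iFGFR2, a rise of 0.88 ± 0.22 (SE; limma, adjusted p = 0.0473). Of 21 claudins it was the 1 called (background 0.272% higher), and their median was -0.00. Among 20 genes of secretory epithelium the median was -0.54 and 2 were called lower (background 1.07%). Pip, which encodes the prolactin-induced protein of apocrine and salivary glands, was at -5.57, -5.51, -4.99 and -5.24 in iR2 and at -3.83, -3.23, -3.77 and -3.83 in iFGFR2. The difference was -1.66 ± 0.27 (SE; limma, adjusted p = 0.00699), and Scgb1a1, a secretoglobin of the airway, fell by 0.90 on the log2 scale. Of 12 hormone-sensing luminal genes 1 was called lower (background 1.07%), the trefoil factor gene Tff3, which fell by 1.08. The median of that list was -0.04. Of 28 squamous keratinocyte genes 1 was called lower (background 1.07%), the kallikrein gene Klk8, which fell by 0.76. Their median was -0.15. Klk8 was above the reference in iFGFR2, at 1.01, 0.40, 0.96 and 1.12, and near it in iR2, at 0.07, 0.18, -0.03 and 0.25.

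Of 44 proliferation genes 1 was called, higher in iR2 (background 0.272%), and the median difference was -0.01. The call was Ccne2, cyclin E2, which drives entry into S phase. It was at 0.07, -0.29, 0.29 and -0.35 in iR2 and at -1.11, -0.89, -1.17 and -1.06 in iFGFR2, a rise of 0.99 ± 0.21 (SE; limma, adjusted p = 0.0206). Among 24 targets and antagonists of Wnt signalling 1 was called lower (background 1.07%), Dkk1, a secreted inhibitor of the Wnt co-receptor. It was at -3.14, -3.79, -2.96 and -3.58 in iR2 and at -2.60, -1.15, -1.98 and -1.36 in iFGFR2, a difference of -1.59 ± 0.39 (SE; limma, adjusted p = 0.0468).

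In bulk tumour RNA, fewer cells of a type and less RNA per cell cannot be told apart. Of 22 T and NK cell genes 1 was called lower (background 1.07%) and 7 lay below without overlap (background 8.68%). Cd3d, a chain of the T cell receptor complex, was at -2.16, -2.33, -1.96 and -2.57 in iR2 and at -1.02, -0.47, -1.53 and -1.39 in iFGFR2. The difference was -1.15 ± 0.24 (SE; limma, adjusted p = 0.0195), and the groups were apart. The related chain Cd3e differed by -0.58 and Cd3g by 0.16, neither called, and Cd8a and Cd8b1 by -0.96 and -0.95. Of 11 mast cell genes limma called 0. At an unadjusted limma p of 0.05, 6 were lower (background 9.64%), and 5 lay below without overlap (background 8.68%). The median of the 11 genes was -0.51 on the deposited scale and -0.17 after quantile normalization. The tryptase gene Tpsab1 was at -3.16 ± 0.11 in iR2 and -2.15 ± 0.32 in iFGFR2 (SD, n = 4; limma, adjusted p = 0.0512). Of 11 erythrocyte and platelet genes 1 was called lower (background 1.07%) and 2 had positive differences. At an unadjusted limma p of 0.05, 6 were lower (background 9.64%). The median of the 11 genes was -0.67 on the deposited scale and -0.33 after quantile normalization. The called gene was Klf1, the erythroid transcription factor, which fell by 1.20 on the log2 scale, and the haemoglobin gene Hba-a1, 1 of the 2 positive ones, differed by 0.40.

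In the stromal and other immune lists limma called 0 genes. The backgrounds at an unadjusted limma p of 0.05 were 5.76% higher and 9.64% lower. At an unadjusted p of 0.05 the counts of higher and lower genes were 2 and 2 of 29 for fibroblasts and matrix, 0 and 1 of 20 for endothelium, 1 and 0 of 10 for pericytes, 0 and 1 of 16 for adipocytes and 0 and 0 of 18 for skeletal muscle. They were 2 and 0 of 20 for macrophages, 1 and 4 of 16 for neutrophils, 2 and 1 of 16 for dendritic cells with MHC class II, 0 and 3 of 17 for B and plasma cells and 0 and 1 of 9 for Schwann cells. The collagen gene Col3a1 was at -3.64, -3.60, -3.74 and -3.73 in iR2 and at -4.95, -4.21, -5.04 and -5.00 in iFGFR2, without overlap, but ranged from -4.86 to -1.11 in Wnt1 tumours (limma, adjusted p = 0.377). Cd74, the invariant chain of MHC class II, was at 1.55 ± 0.54 and 0.42 ± 0.27 (SD, n = 4; limma, adjusted p = 0.0969). In all, 14 of the 45 lists held a called gene and 31 held none.

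**Figure D5:**
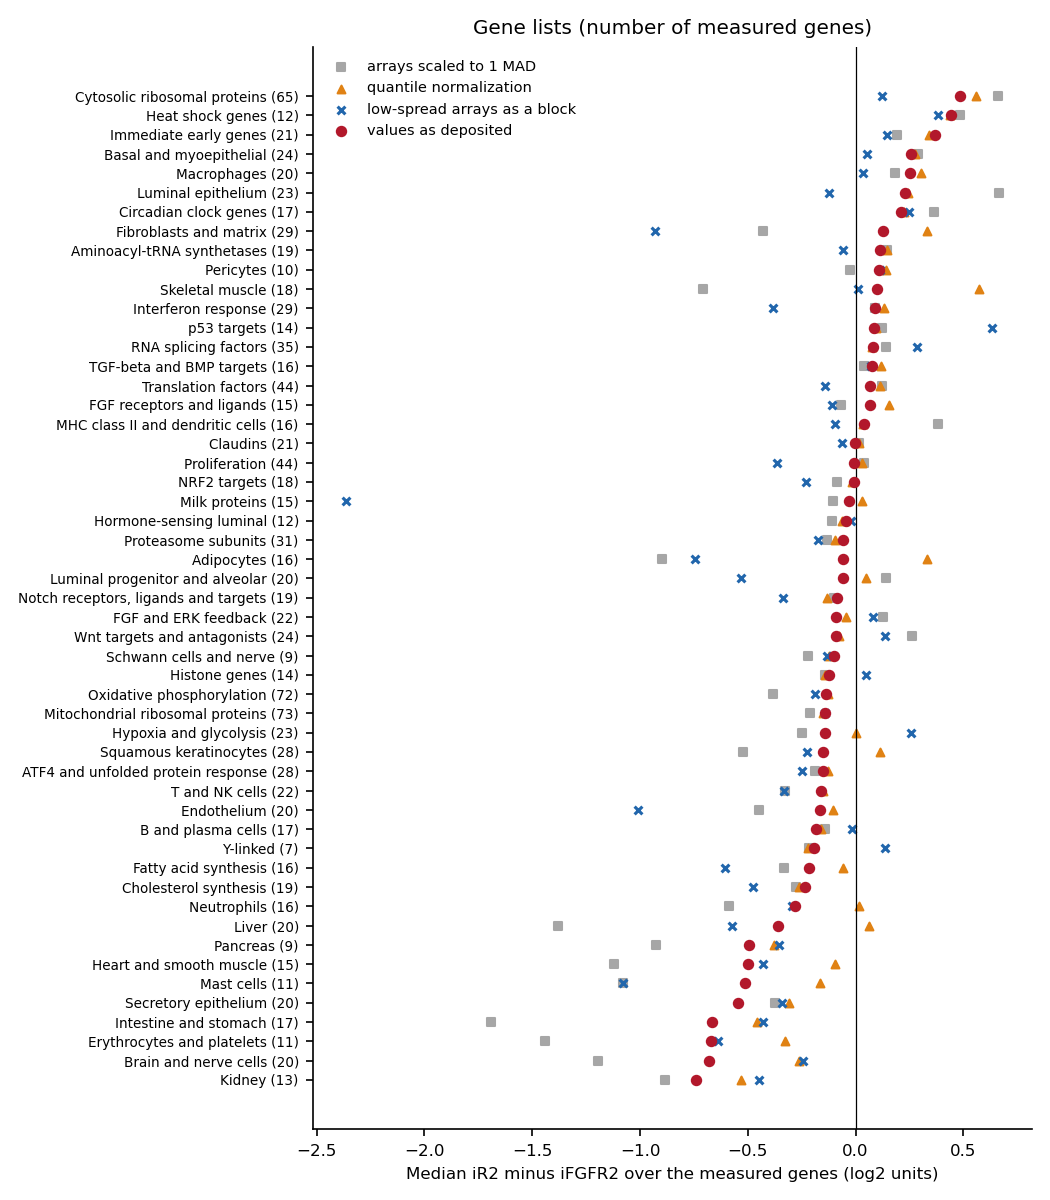
Median iR2 minus iFGFR2 difference of each gene list on the deposited values (circles), after quantile normalization (triangles), with arrays scaled to 1 median absolute deviation (squares) and with the 5 low-spread arrays as a block (crosses). Cytosolic ribosomal proteins have the highest median on the deposited values and stay above 0 under all 4. Several lists, such as liver, neutrophils and adipocytes, change sign with the scaling. The lists of other organs and of the Y chromosome were added after the values were seen.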

How the data were processed

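The series gave 1 table of log ratios for 22575 features on 18 arrays with 2 channels. Per the labels, tumour RNA was isolated with a column kit and labelled with Cy5, and reference RNA was isolated with TRIZOL and labelled with Cy3. The authors deposited log2 ratios, where the base is read as 2 from the values and the direction is taken from the dyes. Scanner, background correction and normalization were not given in the sources used here. No cell was empty.

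Features with 1 symbol in the platform annotation (18658) were averaged per symbol, while 30 with several symbols and 3887 with none named no gene. Of the resulting 16887 genes 15640 rest on 1 feature. limma 3.58.1 in R 4.3.3 fitted 4 group means to all 18 arrays, and p-values were Benjamini-Hochberg adjusted over 16887 genes. Array measures were compared by two-sided exact permutation tests (70 splits). The scripts were tested on simulated data. Precision is limited by the number of arrays.

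Genes named are the label genes, Fkbp1a, the 15 largest called rises and falls without clone names, and markers. From each list up to 4 called members are named or, where none was called, up to 2 with the largest difference. A few other list members are named after their values were seen. The gene lists (45, and 7 added later) and the comparison were chosen with earlier results of these data known. Alternatives were other scalings, other rules for features, array weights, the title number or the spread between repeated features as a covariate or block, a level filter, a threshold of 0.01 and leaving out each array.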

Additional observations from a re-analysis of the deposited data

Results flagged for a closer look

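In 234 sets of 4 arrays (a named gene or an array measure within 1 group), 18 had 1 array far from the other 3, by a gap of over 0.829 of the range; chance marks about 1 in 20 sets. In iR2, replicate 1 was the high array for Hspb1 (1.03, median of the other 3 -0.33), Pkm (0.15 against -0.33) and S100a8 (-5.94 against -6.67). In iR2, replicate 2 was the low array for Mlc1 (-5.18 against -4.73) and Kl (-3.55 against -2.72).

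In iFGFR2, replicate 1 was the high array for Mlc1 (-2.34 against -2.99), Gstm1 (0.56 against -0.53), Myh11 (0.059 against -2.72), Lao1 (1.74 against -0.69), Anpep (1.495 against 0.27), Chil3 (3.96 against -0.01) and the 99th percentile of all ratios (2.50 against 2.01), and the low array for Lgr5 (-2.35 against 0.47) and S100a8 (-5.82 against -5.07). In iFGFR2, replicate 2 was the high array for Pip (-3.23 against -3.83), Col3a1 (-4.21 against -5.00) and Myh4 (-0.27 against -4.43), and the low array for Pabpc1 (0.046 against 1.25).

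Among 3917 features without a single gene symbol, 34 were called between iR2 and iFGFR2 by limma (0.868%), 13 higher and 21 lower.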

How the results depend on the processing

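The 227 called genes became 19 after quantile normalization, 1588 with arrays scaled to 1 median absolute deviation, 1138 with array weights, 30 at an adjusted p of 0.01, 24 of 1247 genes with 2 or more features, 2 with the title number as a covariate, 7 of 14605 genes with those under -1 left out, and 1 with the spread between repeated features as a covariate. The level filter, the spread measure on genes with 10 or 11 features, the covariate and the low-spread block were chosen after seeing the data. Higher genes made up 20.3% of the calls, and 52.6% after quantile normalization. Leaving out 1 array gave 19 to 326 calls (the highest without Wnt1 replicate 3). Of 15 called genes with 2 or more features, all 15 had every feature in the same direction. Of 46 named called genes, all 46 lost the call with either covariate, and 13 kept it after quantile normalization.

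Wnt1, at -0.03, became 0.038 after quantile normalization, 0.35 with scaling, 0.11 with array weights, 0.65 with the title number, 0.46 with the spread covariate, and -0.26 to 0.27 without single arrays (0.27, 0.056 and 0.073 without iFGFR2 replicate 1, iR2 replicate 1 and iR2 replicate 3). With the low-spread block Arpp21 became 0.024, Kl 0.019, Atp5k 0.12, Egln3 0.62, Xbp1 -0.65, Farsb -0.46, Farsa -0.93, Lao1 -4.81, Btn1a1 -1.05 and Col3a1 -1.74. With the spread covariate Fgfr2 became -0.061, Egln3 0.27, Isg15 0.35, Farsa -0.086, Ltf -0.38 and Lao1 -0.62. With the title number Cdkn1a became -0.034, Thrsp 0.26, Krt7 -0.25, Ltf -0.34, Anpep 0.63 and Mbp 0.37. List medians beyond the spread between arrays turned in sign for aminoacyl-tRNA synthetases (-0.058 block, -0.086 spread covariate, -0.00863 with 2 or more features), luminal epithelium (-0.12 block), oxidative phosphorylation (0.0049 spread covariate), basal genes (-0.083 spread covariate, -0.067 with 2 or more features), cholesterol synthesis (0.082 with 2 or more features), fatty acid synthesis (0.096), clock genes (-0.041) and splicing factors (-0.045) with the title number, splicing factors without iFGFR2 replicate 1 (-0.11; up to 0.19 without iFGFR2 replicate 2), secretory epithelium (0.10), neutrophils (0.16) and heart (0.00925) with genes under -1 left out, and neutrophils (0.018) and liver (0.063) after quantile normalization. The cause of these changes was not tested.

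The spread between features of a gene differed by -0.0908, ranging from -0.106 to -0.0702 without single arrays, with an exact permutation p of 0.0571 without any 1 iR2 array and 0.0286 without any 1 iFGFR2 array, and by -0.0272 once divided by the array's median absolute deviation (exact permutation p = 0.2). The median absolute deviation of all ratios differed by -0.124 (-0.143 to -0.0925 without single arrays, with the same p-values), while their standard deviation differed by 0.0745 (exact permutation p = 0.114). No paired analysis was possible because the replicate numbers were given in accession order.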
